A study of Mus musculus with 31 samples.

Results

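Solute carriers are membrane proteins that move nutrients, ions, metals, vitamins and waste products across cell membranes, and the genes described here are those of the array whose symbol starts with Slc and a digit. Genes of the Slc22 organic ion and Slc25 mitochondrial families were left out, as were Slc34a1, Slc5a2, Slc6a19, Slc7a13, Slc13a3, Slc27a2, Slc12a3, Slc26a4 and Slc4a1. This left 186 genes of the 245 with such a symbol and of the 15096 named genes on the array. By symbol they take in 6 scaffold, adaptor and opposite-strand genes, which are not carriers but are counted below with the solute carriers. Among these 6 are Slc9a3r1, Slc9a3r2 and the lncRNA genes Slc36a1os and Slc6a19os. The 186 genes were measured by 206 spots, with 1 spot for 168 genes, 2 for 16 genes and 3 for 2 genes, and spots of a gene were averaged. All 186 had a value in every array, with no filter on low values.

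RNA of 31 BXD strains, inbred mice that carry a mosaic of DBA/2J and C57BL/6J chromosomes, was hybridised strain by strain against RNA of C57BL/6J mice. Each strain had 1 array with equal parts of RNA from 3 male mice aged 8 weeks, labelled red, and the common C57BL/6J RNA, also male and aged 8 weeks, was labelled green on all arrays. The tested strains were 7 from BXD33-42 and 24 from BXD1-32, a division by strain number that rests on background knowledge of a later and an earlier breeding of the panel. Sample titles named kidney while source and tissue fields named whole brain, and the labels did not settle which was used.

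A value is a log2 ratio, most likely of the BXD strain over C57BL/6J, so that 0 means an equal signal and a positive value a higher one in the BXD strain. That direction rests on the order of names in the sample titles, on the green reference channel and on the red over green convention of limma. Dyes were never swapped and the C57BL/6J RNA was common to all arrays, so in a mean over strains the strain, dye and reference effects cannot be told apart. A pool of 3 mice on 1 array gives no spread within a strain, so effects of the strain and of its array cannot be told apart in the spread over strains. Fewer cells of a type and less RNA per cell cannot be told apart either. Ratios also carry no level, so the presence of kidney or brain transcripts could not be read from them. Of 10 measured kidney markers, 7 passed the test of the mean as higher and 0 as lower, with means of -0.07 to 0.67 and a median SD over strains of 0.483. Of 13 brain markers, 3 of them among the 186 genes, 4 were higher and 6 lower, with a median SD of 0.300. Among markers of other tissues, 3 of 4 fat genes were higher and 4 of 4 skeletal muscle genes were lower, with Acta1 at a mean of -1.04, and 2 of 3 adrenal genes were higher. With the mean of each spot position removed, as described below, fat held 3 higher and 1 lower (Adipoq, -0.40), muscle 3 lower and adrenal 0 either way. Kidney markers then held 6 higher and 0 lower, and brain markers 3 higher and 4 lower. As deposited, 27.5% of all features passed as higher and 30.5% as lower. The part of these tissues in the results was not tested. The values were already alike between arrays in their distribution. Correlations between arrays ran from -0.0811 to 0.813 and the first principal component held 20.5% of the variance.

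In the kidney, solute carriers of the proximal tubule take back filtered sugars, amino acids, phosphate, sulfate and carboxylates, mostly with sodium on the luminal side and by facilitated or exchange transport on the side of the blood. Bicarbonate and chloride carriers set salt and acid balance along the nephron, and zinc, iron and copper carriers, nucleotide sugar carriers and lysosomal carriers serve every cell. In the brain, other members of the same families load synaptic vesicles or clear transmitters.

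Over the 31 strains, 56 of the 186 genes had a mean above 0 and 43 a mean below 0 past an adjusted p of 0.05 (limma, test against 0, Benjamini-Hochberg over 21262 features). Of the solute carriers, 53.2% passed in either direction, 30.1% as higher and 23.1% as lower, against 58%, 27.5% and 30.5% of all features. The shares thus lay near those of the whole array. The median of the means was 0.03 for the solute carriers and -0.01 for all named genes. Past the threshold, means were 0.5 or more above 0 in 7 of the 186 genes and 0.5 or more below 0 in 12. Over all features these were 6.59% and 6.73%. The 12 include Slc36a1os, an opposite-strand gene, at -0.54. Of the 99 genes that passed, 32 kept the same sign in at least 28 strains, 20 of them higher and 12 lower. The sign was the same in all 31 strains for Slc2a5, Slc6a21 and Slc17a6.

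Slc39a9, a zinc transporter of the ZIP family, ranged from -0.46 to 2.20 over strains with a median of 0.96. It was above 0 in 30 strains, and its mean was 0.97 ± 0.09 (SE, n = 31, adjusted p = 9.66e-11). Slc2a5, the fructose transporter GLUT5 of gut and proximal tubule, ranged from 0.25 to 2.06 with a median of 0.69. No strain was at or below 0, and the mean was 0.84 ± 0.09 (SE, n = 31, adjusted p = 1.09e-09). At the other end Slc17a6, which loads glutamate into synaptic vesicles, ranged from -1.54 to -0.11 with a median of -0.71. Every strain lay below 0, with a mean of -0.77 ± 0.07 (SE, n = 31, adjusted p = 4.2e-11). These genes are shown with their promoters as examples of genes that held their sign in all or all but 1 of the strains.

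The promoters are those of RefSeq on build GRCm38.p6, in windows of 300 bases over the first listed start, 5′ to 3′ on the strand of the gene. Slc39a9 lies on the plus strand (chr12:80643965-80644264), as do Slc2a5 (chr4:150119094-150119393) and Slc17a6 (chr7:51621580-51621879). Capitals mark matches to any of 4 short motifs searched on both strands.

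Slc39a9: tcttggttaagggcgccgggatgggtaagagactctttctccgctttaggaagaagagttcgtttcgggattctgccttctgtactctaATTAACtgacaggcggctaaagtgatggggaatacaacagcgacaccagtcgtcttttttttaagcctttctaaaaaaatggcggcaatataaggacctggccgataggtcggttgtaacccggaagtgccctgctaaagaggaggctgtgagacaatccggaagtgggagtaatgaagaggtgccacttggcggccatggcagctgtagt

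Slc2a5: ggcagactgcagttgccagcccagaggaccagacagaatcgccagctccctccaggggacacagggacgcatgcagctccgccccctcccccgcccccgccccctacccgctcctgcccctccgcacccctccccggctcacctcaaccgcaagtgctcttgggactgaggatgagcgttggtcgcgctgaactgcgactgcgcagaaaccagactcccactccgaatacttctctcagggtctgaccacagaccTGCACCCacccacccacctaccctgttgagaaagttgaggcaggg

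Slc17a6: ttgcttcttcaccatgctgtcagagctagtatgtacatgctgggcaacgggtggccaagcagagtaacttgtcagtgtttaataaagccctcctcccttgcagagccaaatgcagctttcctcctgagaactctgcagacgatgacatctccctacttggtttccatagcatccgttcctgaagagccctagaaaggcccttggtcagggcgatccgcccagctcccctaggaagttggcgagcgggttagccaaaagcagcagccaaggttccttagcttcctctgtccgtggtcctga

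The motifs were TATAAA (the TATA box), GTTAAT (a half-site of HNF1, a factor of kidney and liver epithelium), TGCACNC or TGCGCNC (the core of metal response elements) and TGACNNNGC (the core of antioxidant response elements). Capitals in Slc39a9 mark a GTTAAT match on the opposite strand, those in Slc2a5 a TGCACNC match, and Slc17a6 held none of the 4 in this window. Promoters were found for 150 of the 186 genes. TATAAA stood in 10.7% of these 150, against 14.2% of all 27025 promoters of the same length. GTTAAT stood in 7.33% against 7.2%, and TGACNNNGC in 15.3% against 12.5%. TGCACNC or TGCGCNC stood in 37.3% of the solute carrier promoters and 25.6% of all. A match is a run of letters and was not tested for binding.

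**Figure D1:**
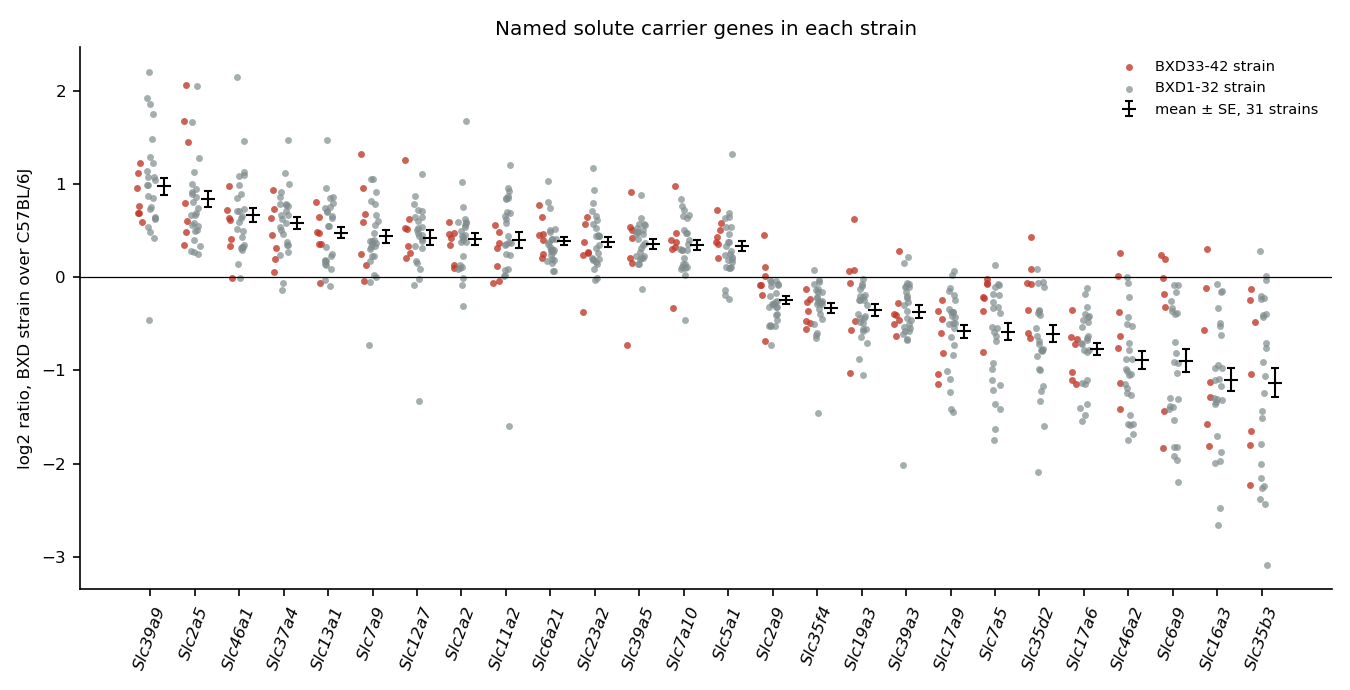
Log2 ratio over C57BL/6J (vertical axis) of the 14 genes of highest and 12 of lowest mean among those past the threshold with the same sign in at least 28 strains. Points are strains, BXD33-42 in red left of BXD1-32 in grey, and bars give the mean ± SE over 31 strains; Slc2a5 and Slc6a21 lie above 0 in every strain and Slc17a6 below 0 in every strain.

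Sugar carriers moved in both directions, in shares near those of the whole array. Of 19 genes of the sugar families, 6 rose and 5 fell, or 31.6% and 26.3%, against 27.5% and 30.5% of all features. Beside Slc2a5, the intestinal and renal glucose carriers Slc2a2 (GLUT2, on the side of the blood) and Slc5a1 (SGLT1, luminal and sodium-coupled) rose. Slc2a2 ranged from -0.30 to 1.67 with a median of 0.43 and a mean of 0.41 ± 0.06 (SE, adjusted p = 1.94e-06), and 28 strains were above 0. Slc5a1 ranged from -0.23 to 1.32 with a median of 0.33 and a mean of 0.34 ± 0.06 (SE, adjusted p = 4.68e-06), also with 28 strains above 0. Slc37a4, which carries glucose 6-phosphate into the endoplasmic reticulum for glucose release, ranged from -0.13 to 1.47 with a median of 0.62. It had a mean of 0.58 ± 0.06 (SE, adjusted p = 2.33e-09) and was above 0 in 29 strains. The largest mean of the class was that of Slc2a8 (GLUT8, an intracellular glucose transporter), at 0.99 ± 0.18 (SE, adjusted p = 2.66e-05), with 4 strains below 0 and a highest value of 2.87. Its spot lay at a position of the array that varied widely, as given with the spread over strains.

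Slc2a1, the glucose transporter GLUT1 of the blood-brain barrier, ranged from -1.95 to 0.99 with a median of -1.15. It fell, with a mean of -0.90 ± 0.14 (SE, adjusted p = 1.99e-06), although 6 strains were above 0. Slc2a9, a urate transporter of the same family, fell in a narrow range, from -0.73 to 0.46, with a mean of -0.25 ± 0.05 (SE, adjusted p = 3.79e-05). The other 3 that fell were Slc45a2, known from melanocytes, at a mean of -0.39, the choline carrier Slc5a7 at -0.30 and the iodide carrier Slc5a5 at -0.26 (not past the threshold with spot position removed), so the class name covers members that carry other solutes.

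Among 37 amino acid and transmitter carriers, 13 rose and 6 fell, or 35.1% and 16.2%, against 27.5% and 30.5% of all features. Slc7a9, the light chain of the luminal cystine and dibasic amino acid exchanger, ranged from -0.73 to 1.32 with a median of 0.38. Its mean was 0.44 ± 0.07 (SE, adjusted p = 4.77e-06) and 28 strains were above 0. Its heavy chain Slc3a1 went the other way, from -0.92 to 0.71 with a median of -0.20 and a mean of -0.18 ± 0.07 (SE, adjusted p = 0.0237). Slc7a7, the light chain of the exchanger on the side of the blood, had the largest mean of the class at 0.50 ± 0.06 (SE, adjusted p = 7.09e-08), with strains from -0.15 to 1.07. Slc6a21 had the narrowest spread of the 26 genes named for their means, from 0.06 to 1.03 with a median of 0.36 and a mean of 0.39 ± 0.04 (SE, adjusted p = 5e-09). Slc7a10, an exchanger of small neutral amino acids, was above 0 in 29 strains, with a range of -0.46 to 0.97 and a mean of 0.34 ± 0.06 (SE, adjusted p = 4.55e-06).

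The falls in this class were led by Slc6a9, the glycine transporter GlyT1, which ranged from -2.19 to 0.24 with a median of -0.91 and a mean of -0.90 ± 0.12 (SE, adjusted p = 2.64e-07). Only BXD42 and BXD34 were above 0. Slc7a5, the light chain LAT1 of the exchanger of large neutral amino acids, ranged from -1.75 to 0.13 with a median of -0.38. It was above 0 in 1 strain, and its mean was -0.58 ± 0.09 (SE, adjusted p = 1.69e-06). Its heavy chain Slc3a2 did not pass, at -0.08 ± 0.07 (SE, adjusted p = 0.323).

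**Figure D2:**
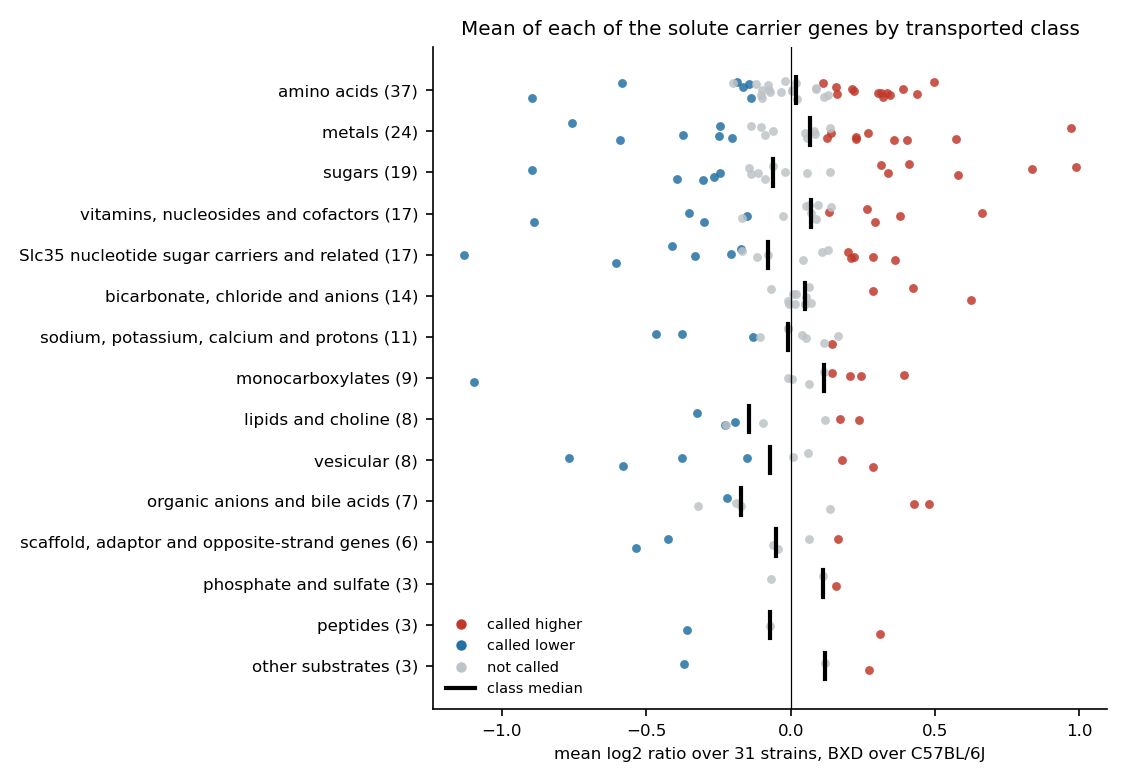
Mean log2 ratio over 31 strains (horizontal axis) of each of the 186 genes, 1 point per gene, in rows of transported classes with the number of genes in brackets. Red points passed the threshold as higher and blue as lower, grey points did not pass, and black bars are class medians; the 24 metal carriers, for example, hold 9 red points and 6 blue.

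Of 24 metal carriers, 9 rose and 6 fell, or 37.5% and 25%, against 27.5% and 30.5% of all features. Slc40a1, ferroportin, which exports iron from cells, ranged from -0.45 to 1.36 with a median of 0.64. It rose, with a mean of 0.57 ± 0.07 (SE, adjusted p = 8.45e-08), and 27 strains were above 0. Slc11a2, the proton-coupled importer of divalent metals DMT1, was above 0 in 28 strains, with a range of -1.60 to 1.21 and a mean of 0.40 ± 0.09 (SE, adjusted p = 0.000182). Zinc importers of the Slc39 family moved in both directions. Slc39a9, Slc39a5 at a mean of 0.36, Slc39a7 at 0.27 and Slc39a11 at 0.23 rose, while Slc39a3 at -0.37, Slc39a4 at -0.25 and Slc39a10 at -0.25 fell, of which Slc39a4 did not pass with spot position removed (mean -0.01). Slc30a4, which moves zinc out of the cytosol into vesicles, ranged from -1.82 to 0.60 with a median of -0.74 and fell to a mean of -0.76 ± 0.10 (SE, adjusted p = 2.42e-07). Slc48a1, which carries heme out of lysosomes, fell to -0.59 ± 0.14 (SE, adjusted p = 0.000416), with strains from -2.07 to 1.69.

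Among 17 carriers of vitamins, nucleosides and cofactors, 5 rose and 4 fell, or 29.4% and 23.5%, against 27.5% and 30.5% of all features. Slc46a1, the proton-coupled folate transporter, ranged from -0.01 to 2.15 with a median of 0.63. It was above 0 in 29 strains, with a mean of 0.66 ± 0.08 (SE, adjusted p = 9.98e-09). Its family member Slc46a2, known from thymic stroma, ranged from -1.74 to 0.25 with a median of -0.98 and fell to a mean of -0.89 ± 0.09 (SE, adjusted p = 1.68e-09). Slc23a2, a sodium-coupled ascorbate transporter, rose to 0.38 ± 0.06 (SE, adjusted p = 7.44e-07), with strains from -0.38 to 1.17. The thiamine carriers differed, with Slc19a2 higher at 0.26 and Slc19a3 lower at -0.35. With spot position removed, the mean of Slc19a3 was -0.06 (adjusted p = 0.336) and did not pass.

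The 9 monocarboxylate carriers held 4 that rose and 1 that fell, or 44.4% and 11.1%, against 27.5% and 30.5% of all features. Slc16a3, the lactate exporter MCT4 of glycolytic cells, ranged from -2.65 to 0.30 with a median of -1.13. Its mean was -1.10 ± 0.12 (SE, adjusted p = 4.97e-09), and 1 strain was above 0. Slc16a1, the related carrier MCT1, was at 0.14 ± 0.06 (SE, adjusted p = 0.0435), and neither it nor Slc16a8 passed with spot position removed. Bsg, the chaperone that takes both to the membrane, fell to -0.22 ± 0.06 (SE, adjusted p = 0.00403).

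The 17 genes of the Slc35 family, many of which bring nucleotide sugars or activated sulfate into the Golgi apparatus, included 5 that rose and 6 that fell. These were 29.4% and 35.3%, against 27.5% and 30.5% of all features. Slc35b3, a carrier of activated sulfate, had the lowest mean of all solute carriers described, at -1.13 ± 0.16 (SE, adjusted p = 2.27e-07). The lowest strain was at -3.08, the median at -1.04 and the highest at 0.28, and 2 were above 0. Slc35b2, the other carrier of activated sulfate, was at -0.17 and did not pass with spot position removed. Slc35d2, a nucleotide sugar carrier, fell to -0.61 ± 0.09 (SE, adjusted p = 1.45e-06), with a range of -2.09 to 0.43. Of those that rose, Slc35f2 had the largest mean at 0.36 and Slc35a3, which carries UDP-N-acetylglucosamine, was at 0.28.

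Of 14 carriers of bicarbonate, chloride and other anions, 3 rose and 0 fell, while 6 were higher and 1 lower with spot position removed. As deposited, the shares were 21.4% and 0%, against 27.5% and 30.5% of all features. Slc4a4, the sodium bicarbonate cotransporter that takes bicarbonate from the proximal tubule to the blood, ranged from -0.76 to 2.44 with a median of 0.62 and a mean of 0.62 ± 0.13 (SE, adjusted p = 0.000131). Of the measured potassium chloride cotransporters, Slc12a7 (KCC4) and Slc12a4 (KCC1) rose, at means of 0.42 and 0.28, and Slc12a5 (KCC2) did not pass, at 0.01 ± 0.06 (SE, adjusted p = 0.904). Among 11 exchangers of sodium, potassium, calcium and protons, 1 rose and 3 fell, or 9.09% and 27.3%, against 27.5% and 30.5% of all features. Slc9a3, the luminal sodium proton exchanger NHE3 of the proximal tubule, ranged from -1.59 to 0.68 with a median of -0.36 and fell to -0.38 ± 0.09 (SE, adjusted p = 0.000464). Slc8b1, the mitochondrial sodium calcium exchanger, fell to -0.47 ± 0.08 (SE, adjusted p = 8.77e-06). The gene that rose was Slc24a2 at 0.14, an average of 2 spots at -0.01 and 0.29, of which only the second passed. With spot position removed, 2 of the 11 were higher and 3 lower.

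Slc13a1 and Slc13a2, the sodium carboxylate and sulfate carriers of the Slc13 family kept for this description, rose. Slc13a3, of the same family, was measured but left out by name. As deposited it did not pass, at a mean of 0.07 (limma, adjusted p = 0.41). With spot position removed, Slc13a3 passed as higher at 0.17. Slc13a1, the renal sulfate transporter, ranged from -0.10 to 1.47 with a median of 0.48 and a mean of 0.48 ± 0.06 (SE, adjusted p = 1.24e-07), and 28 strains were above 0. Slc13a2, the citrate and succinate transporter, ranged from -0.19 to 1.54 and had a mean of 0.43 ± 0.08 (SE, adjusted p = 1.24e-05). The 4 measured genes of the Slc10 family, only some of them bile acid carriers, had means below 0. Of these, Slc10a2, the ileal and renal bile acid carrier, passed at -0.22 ± 0.07 (SE, adjusted p = 0.00418). With spot position removed, Slc10a1 (-0.41) and Slc10a7 (-0.20) passed as lower too. The peptide carriers went apart, with Slc15a2 (PEPT2, the main renal form) higher at 0.31 and Slc15a1 (PEPT1, the main intestinal form) lower at -0.36. So did the urea carriers Slc14a1 at 0.27 and Slc14a2 at -0.37, though Slc14a2 did not pass with spot position removed (mean -0.09). Of 3 phosphate carriers, Slc20a2 was higher at 0.16 and likewise did not pass with position removed.

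Of 8 genes of the vesicular families, against 27.5% higher and 30.5% lower of all features, 2 rose (25%) and 4 fell (50%). Beside Slc17a6, these were Slc17a9, which loads nucleotides into vesicles, at -0.58 ± 0.07 (SE, adjusted p = 2.99e-08), Slc17a1, a renal phosphate and urate transporter, at -0.38, and the glutamate carrier Slc17a7 at -0.15, which did not pass with spot position removed. Slc18a3, which loads acetylcholine, rose to 0.29 ± 0.04 (SE, adjusted p = 1.28e-06). Of 8 lipid and choline carriers, 2 rose and 3 fell, or 25% and 37.5%, against the same shares of all features. The fatty acid carriers Slc27a4 and Slc27a5 were at 0.24 and 0.17, and the choline carriers Slc44a4, Slc44a1 and Slc44a2 at -0.32, -0.23 and -0.19. With spot position removed, Slc27a4, Slc27a5 and Slc44a2 did not pass.

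Proteins that work with solute carriers were also read. Of 17 measured partners out of 21 listed, 8 rose and 5 fell, or 47.1% and 29.4%, against 27.5% and 30.5% of all features. Pdzk1, a scaffold of luminal carriers in the proximal tubule, ranged from -0.09 to 2.89 with a median of 0.85 and rose to 0.97 ± 0.12 (SE, adjusted p = 6.16e-08). Atp1b1 and Fxyd2, subunits of the sodium pump that drives sodium-coupled uptake, rose to 0.65 ± 0.16 and 0.50 ± 0.09 (SE, adjusted p = 0.00108 and 1.55e-05). Cltrn, which takes neutral amino acid carriers to the luminal membrane, rose to 0.35 ± 0.08 (SE, adjusted p = 0.000252). Nedd4l, a ubiquitin ligase of sodium transporters, ranged from -2.11 to 1.31 and fell to -0.81 ± 0.13 (SE, adjusted p = 2.2e-06). Slc9a3r1, the scaffold NHERF1 that is named after NHE3 and is itself among the 186 genes, fell to -0.42 ± 0.08 (SE, adjusted p = 5.59e-05).

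The spread over strains was also close to that of the array. The median SD of the solute carriers was 0.353, against 0.358 for all named genes, and 19.9% had an SD above 0.5, against 21.2%. Among the 12 genes of widest spread, Slc10a6, a carrier of steroid sulfates, came first with an SD of 1.21. It ranged from -1.84 in BXD6 to 1.58 in BXD23 with a median of -0.76, and its mean of -0.32 did not pass (adjusted p = 0.175). The widest gap between neighbouring strain values lay between -0.43 and 0.02, with 18 strains below it and 13 above. Slc35b3, Slc2a1 and Slc6a9, all with most strains below 0, had SDs of 0.915, 0.822 and 0.726. Slc4a4 had an SD of 0.767 and was highest in BXD12, at 2.44. Slc48a1 had an SD of 0.804 and was highest in BXD14, at 1.69, and lowest in BXD16, at -2.07.

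Slc16a14, an orphan of the monocarboxylate family, owed its place to 1 array. It was at 3.32 in BXD36, while the next strain was at 0.47, the median was 0.01 and the lowest was -0.90. Slc20a1, a sodium phosphate cotransporter of most cells, ranged from -1.73 in BXD8 to 3.34 in BXD24 with a median of -0.06, and the second highest strain was at 1.78. Slc2a8 had 8 strains between 2.16 and 2.87 and 23 at or below 1.38. The 8 were BXD33 of BXD33-42 and BXD1, BXD2, BXD5, BXD6, BXD12, BXD15 and BXD27 of BXD1-32.

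**Figure D3:**
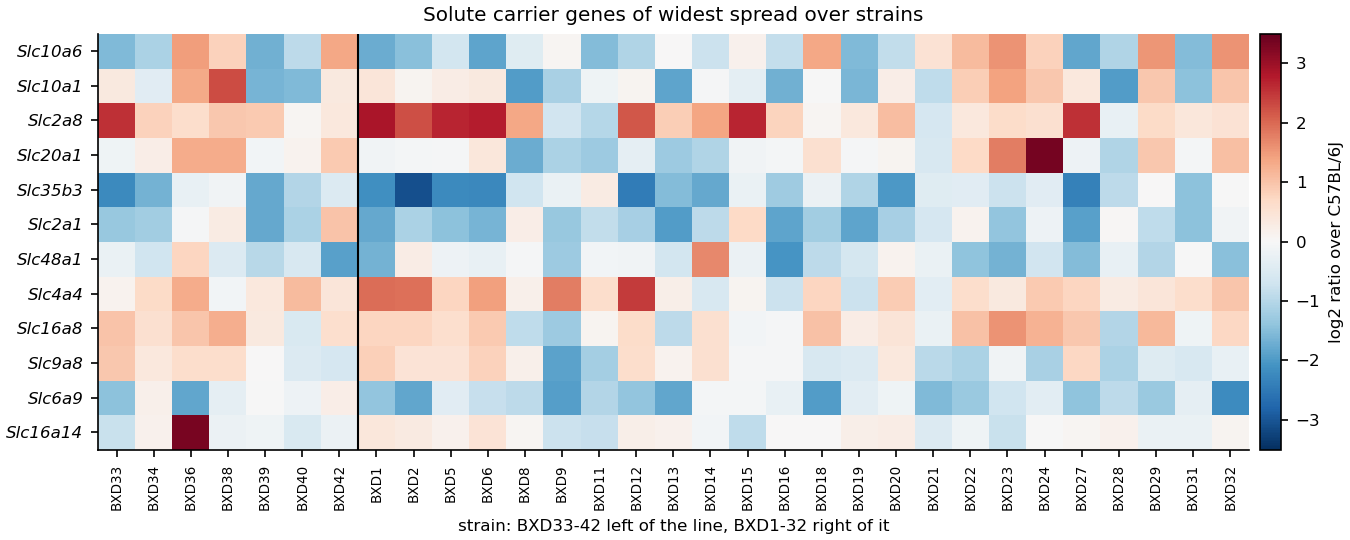
Heat map of log2 ratios over C57BL/6J of the 12 genes of widest spread (rows, widest at the top) in each strain (columns), with BXD33-42 left of the line and BXD1-32 right of it. Red is higher and blue lower in the strain; Slc16a14 is dark red in BXD36 alone, and Slc10a1 and Slc16a8 share most of their high and low strains.

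Spots were laid out so that the pattern of mean ratios recurred every 480 spots, and position in this repeat held 36.7% of the variance of the mean ratio over all spots. Each position had 48 spots. The mean of the spots at a position had a median SD over strains of 0.104, with a highest SD of 0.833 at position 24. Slc2a8 lay at that position, and its correlation with the position mean was 0.873. Slc10a1, Slc16a8 and Slc20a1 all lay at position 64, which was number 4 of 480 by SD at 0.614, with correlations of 0.803, 0.797 and 0.792. Slc9a8, a sodium proton exchanger of inner membranes, lay at position 304, number 7 by SD at 0.553, with a correlation of 0.795.

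With position means removed, the SD was 0.540 for Slc2a8, 0.734 for Slc10a1, 0.446 for Slc16a8, 0.655 for Slc20a1 and 0.442 for Slc9a8, against 1.08, 1.13, 0.737, 1.02 and 0.728 as deposited. The SD of Slc10a6 was 1.17 and that of Slc35b3 0.837 with position removed. The mean of Slc2a8 was 0.47 (adjusted p = 6.8e-05) with position removed. Other means that passed in both forms also moved. They were smaller with position removed for Slc12a7 (0.26), Slc12a4 (0.13), Slc5a1 (0.21), Slc18a3 (0.15), Slc35d2 (-0.38) and Slc2a9 (-0.14). They were larger in size for Slc19a2 (0.56), Slc39a7 (0.45) and Slc3a1 (-0.32). Of the 37 genes with an SD above 0.5, 12 were at or below 0.5 after the removal. Of the 99 genes that passed, 83 passed again with the same sign, 0 passed with the opposite sign and 16 did not pass, while 20 others passed.

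**Figure D4:**
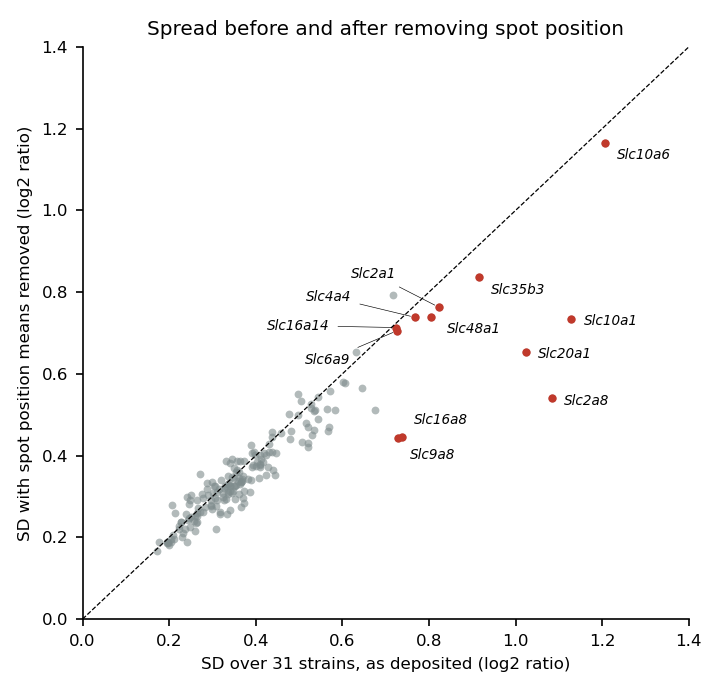
SD over 31 strains of each of the 186 genes as deposited (horizontal axis) and with the mean of each spot position removed (vertical axis), both in log2 ratio. Red points are the 12 genes of widest spread and the dashed line marks equal SDs; Slc2a8, Slc10a1, Slc20a1, Slc16a8 and Slc9a8 lie well below the line and Slc10a6 near it.

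Pairs of proteins known to act together were compared over strains. Of 17 listed pairs, 14 were measured, with permutation p-values adjusted over these 14. None of the heavy and light chain pairs of amino acid exchangers passed. Slc3a1 and Slc7a9 had a Pearson r of -0.00923 (2-sided permutation test, adjusted p = 0.984) and a Spearman rho of 0.0165 (adjusted p = 0.966). Slc3a2 and its light chains Slc7a5, Slc7a7, Slc7a8, Slc7a10 and Slc7a11 had r of -0.178, -0.166, 0.236, -0.147 and -0.348, with adjusted p-values of 0.381 to 0.753. Bsg with Slc16a1, Slc16a3, Slc16a7 and Slc16a8 had r of -0.00367 to 0.120, with adjusted p-values of 0.753 to 0.984. Slc5a1 and Slc2a2, the luminal and basal steps of glucose uptake, had an r of 0.293 (rho 0.154, adjusted p = 0.381 and 0.793).

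The pair that passed was Slc9a3 with Slc9a3r2, the scaffold NHERF2 that binds this exchanger. Slc9a3r2 ranged from -1.30 in BXD38 to 1.25 in BXD20 with a median of 0.04, and Slc9a3 was highest in BXD38, at 0.68, and lowest in BXD20, at -1.59. The Pearson r was -0.637 (p = 0.00017, adjusted p = 0.00238) and Spearman's rho was -0.562 (p = 0.00126, adjusted p = 0.0176; 2-sided permutation tests with 100000 resamples, n = 31). Without BXD20 and BXD38, the strains farthest from the median of Slc9a3r2, r was -0.434. Both genes followed the first principal component of all features, Slc9a3 with a correlation of 0.788 and Slc9a3r2 with -0.645. With that component removed, r was -0.273 (adjusted p = 0.377) and did not pass. Slc9a3r1 and Slc9a3 had an r of 0.315 (rho 0.322, adjusted p = 0.381 and 0.270).

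Among all 17205 pairs of the 186 genes, 3.36% had an r above 0.5 and 2.23% an r below -0.5, against 2.88% and 2.35% over all named genes. The pairs below are those of largest r and are given as a description over 31 strains that share the reference RNA and the array layout. Slc10a1, the sodium bile acid carrier of liver cells, and Slc16a8, a lactate carrier known from retinal pigment epithelium, had an r of 0.852. Both lay at spot position 64, and r was 0.515 with position removed. Slc20a1, at the same position, had r of 0.684 with Slc10a1 and 0.730 with Slc16a8, and 0.235 and 0.236 with position removed. Slc2a8 and Slc9a8 had an r of 0.820, and 0.335 with position removed.

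Other pairs changed less when position was removed. Slc5a4a, of the sodium glucose family, and Slc7a5 had an r of 0.815, and 0.821 with position removed. Slc5a11, a carrier of myo-inositol, and Slc8b1 had 0.801 and 0.766, from adjacent positions 306 and 307. Slc38a10 and the anion exchanger Slc4a2 had 0.787 and 0.784. Slc23a4 and the calcium exchanger Slc8a3 had 0.794 and 0.774, and 0.660 without BXD15 and BXD38, as both genes were lowest in BXD38. Removing the first component left r of 0.636 for Slc5a4a and Slc7a5 and 0.564 for Slc5a11 and Slc8b1. It left 0.638 for Slc38a10 and Slc4a2 and 0.765 for Slc23a4 and Slc8a3. The most opposed pair was Slc40a1 and Slc9a3, with an r of -0.806, and -0.749 with position removed and -0.553 with the first component removed. Slc40a1 was lowest and Slc9a3 highest in BXD38. Slc4a2 and Slc35d3 had an r of -0.761, and the cationic amino acid carrier Slc7a2 had -0.755 with Slc32a1, which loads GABA and glycine into vesicles, and -0.749 with Slc10a6. With the first component removed, r was -0.510 for Slc4a2 and Slc35d3, -0.512 for Slc7a2 and Slc32a1, and -0.397 for Slc7a2 and Slc10a6.

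**Figure D5:**
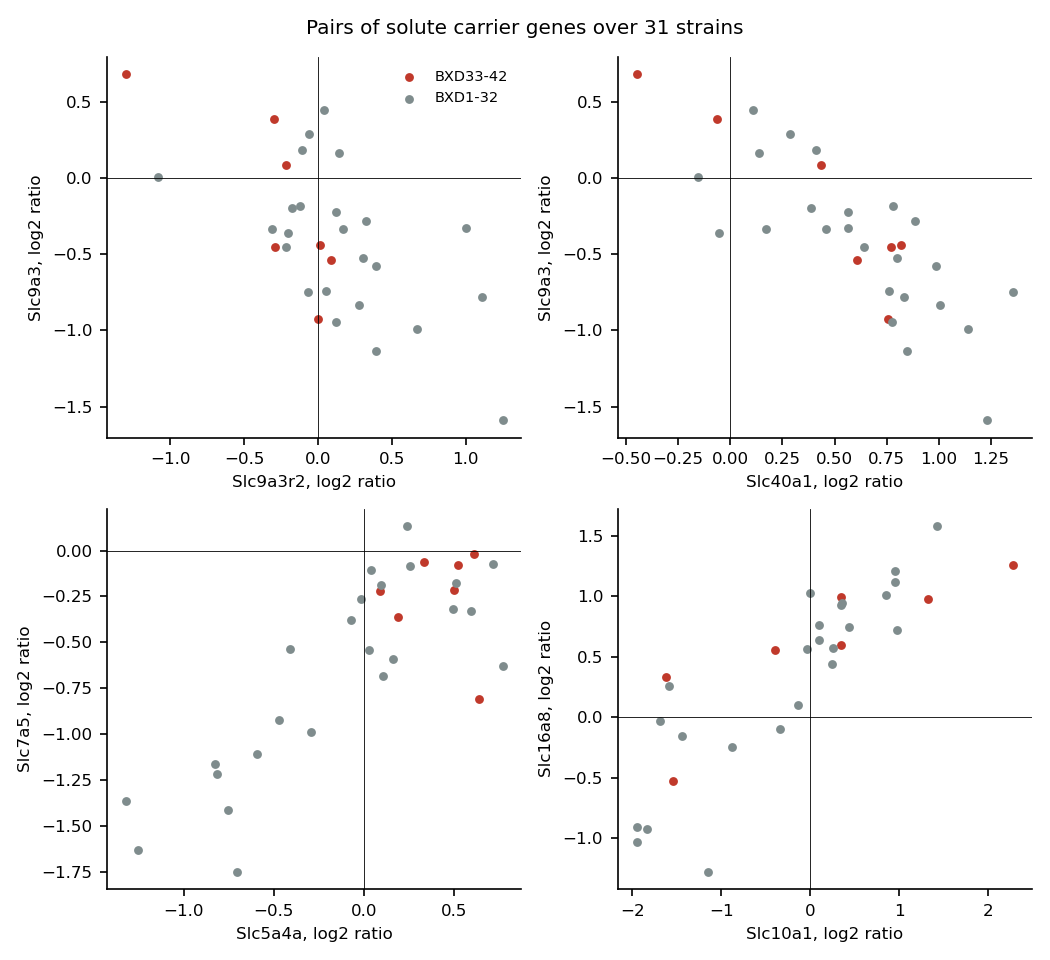
Log2 ratios over C57BL/6J of 4 pairs of genes, 1 point per strain, BXD33-42 in red and BXD1-32 in grey. Upper panels set Slc9a3 (vertical axes) against Slc9a3r2 and Slc40a1, with r of -0.637 and -0.806; lower panels set Slc7a5 against Slc5a4a, with r of 0.815, and Slc16a8 against Slc10a1, with r of 0.852 and a shared spot position.

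The promoters of Slc10a1 (chr12:80968656-80968955, minus strand) and Slc16a8 (chr15:79254699-79254998, minus strand) are shown because this pair had the highest r. They come from the same RefSeq table, 5′ to 3′ on the strand of the gene, with motif matches in capitals.

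Slc10a1: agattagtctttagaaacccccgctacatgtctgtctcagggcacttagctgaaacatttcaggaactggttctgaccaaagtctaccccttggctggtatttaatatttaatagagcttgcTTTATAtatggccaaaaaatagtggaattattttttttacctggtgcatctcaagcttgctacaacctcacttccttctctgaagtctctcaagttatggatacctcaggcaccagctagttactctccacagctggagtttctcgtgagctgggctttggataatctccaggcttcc

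Slc16a8: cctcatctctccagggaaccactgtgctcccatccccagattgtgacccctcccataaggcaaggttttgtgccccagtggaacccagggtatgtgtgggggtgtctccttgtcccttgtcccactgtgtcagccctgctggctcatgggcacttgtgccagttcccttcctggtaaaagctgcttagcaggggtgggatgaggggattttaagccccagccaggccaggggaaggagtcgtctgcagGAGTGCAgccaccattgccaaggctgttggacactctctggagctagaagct

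The match in Slc10a1 is TATAAA read on the opposite strand and that in Slc16a8 is to TGCACNC or TGCGCNC, so the pair shared none of the 4 motifs in these windows.

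Members that lie next to each other on a chromosome, with at most 2 genes of the RefSeq table between them, formed 13 pairs. Slc13a2 and Slc46a1, adjacent on chromosome 11 and both higher, had an r of 0.538. Slc40a1 and Slc39a10 on chromosome 1 had an r of -0.591, and Slc10a1 and Slc8a3 on chromosome 12 had -0.677. Of these genes, Slc10a1 lay at spot position 64, and Slc40a1 had a correlation of -0.726 with the first component. The cluster of Slc38a1, Slc38a2 and Slc38a4 on chromosome 15 gave 0.375 and 0.143 between neighbours. The other pairs with 0 genes between them had r from -0.352 (Slc16a11 and Slc16a13) to -0.0434 (Slc9a4 and Slc9a2).

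Between BXD33-42 and BXD1-32, 0 of the 186 genes passed (limma, adjusted p of 0.05), and 2 of 21262 features did, or 0.00941%. An unadjusted p under 0.05 was found for 26 of the solute carriers (14.0%) and 2687 features (12.6%). The 5 genes of smallest p all had a lower mean in BXD33-42. Slc4a10, a sodium bicarbonate transporter of neurons, ranged from -0.73 to 0.14 with a median of -0.26 in BXD33-42, and from -0.35 to 1.41 with a median of 0.17 in BXD1-32. The difference was -0.52 ± 0.15 (SE, adjusted p = 0.170). Slc35a1, the carrier of CMP-sialic acid into the Golgi apparatus, ranged from -1.52 to 0.02 with a median of -0.70 in BXD33-42, and from -1.20 to 0.66 with a median of 0.17 in BXD1-32. The difference was -0.71 ± 0.20 (SE, adjusted p = 0.170). The groups overlapped for both genes.

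Slc4a2, an anion exchanger on the side of the blood in many epithelia, had means of -0.50 in BXD33-42 and 0.17 in BXD1-32, a difference of -0.66 ± 0.21 (SE, adjusted p = 0.182). Slc4a10 and Slc4a2 lay at the same spot position, 49, with correlations with the position mean of 0.578 and 0.774. Slc35a1, at position 125, had 0.750. With position removed, the smallest adjusted p of the 186 genes between the groups was 0.314 (limma). The lysosomal amino acid carrier Slc36a1 had means of -0.44 in BXD33-42 and -0.06 in BXD1-32, a difference of -0.38 ± 0.13 (SE, adjusted p = 0.215). Slc8a3 had means of -0.47 in BXD33-42 and 0.13 in BXD1-32, a difference of -0.60 ± 0.21 (SE, adjusted p = 0.232). In Slc8a3 the SD was 0.886 over the 7 arrays of BXD33-42 and 0.356 over the 24 of BXD1-32, and the lowest value, -1.80, was that of BXD38.

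Spots of the same gene did not, as a rule, vary together over strains. Over the 16 genes with 2 spots, the correlation of the spots over strains had a median of -0.101 and a range of -0.374 to 0.411. In 8 of the 18 genes with more than 1 spot, the spot means had opposite signs. For Slc17a6 the spots had means of -1.25 ± 0.09 and -0.28 ± 0.08 (SE), both lower past the threshold. The spots of 3 genes passed in both directions. Slc1a3, the glial glutamate transporter, had spot means of -0.46 and 0.23 at the extremes of 3, Slc7a2 had -0.39 and 0.19, and Slc38a10 had -0.26 and 0.30. For these genes the average is a mean of spots that differ, and the correlations given for Slc7a2 and Slc38a10 are those of such averages. The remaining 168 genes had no second spot to compare.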

How the data were processed

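Per the labels' protocols, RNA of 3 mice was pooled for each of 31 strains and hybridised with C57BL/6J RNA on 2-colour spotted arrays. The deposited values are log2 ratios, with R 2.0.0 and limma named in the submitters' processing notes, and other steps, base and direction not given in the sources used here. The base and direction are inferred, and the median of every column was 0.0127 with identical sorted values, so the authors' arrays had been quantile-normalized. Intensities were not used, signal over background is unknown, and the number of arrays limits the precision.

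Of 23040 spots, 16874 had 1 gene name, 134 several and 6032 none in the platform annotation. All 206 solute carrier spots matched RefSeq by gene number. Spots of a gene were averaged, and all 21262 genes and unnamed spots were fitted by limma 3.58.1 under R 4.3.3 (lmFit, then eBayes, 2-sided), tested on simulated data beforehand. Each strain is 1 array, so p-values measure the spread between arrays. Correlations used 100000 permutations (SciPy 1.17.1).

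The genes, lists, classes and pairs were chosen with earlier results of these data known. Genes were named as the 14 highest and lowest means past the threshold with 1 sign in at least 28 strains (12 genes qualified downward), the 12 widest SDs, the 5 smallest group p-values, the 6 largest and 4 lowest pair correlations, the 5 widest spot differences, and up to 2 genes higher, 2 lower and the widest of each class. Other genes were named to complete a family, after their values were seen. Alternatives were array centring, removal of spot position means, leaving out BXD15 and BXD38, the spot of largest SD, single spots, a filter on small spread, array weights, robust eBayes, treat, the first principal component, Spearman correlation and BXD16-32 as the set compared with BXD33-42.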

Additional observations from a re-analysis of the deposited data

Results flagged for a closer look

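Among the 41 named genes, each tested over the 7 arrays of BXD33-42 for 1 strain far from the others, 5 were flagged. The gap to the nearest strain divided by the range was above Dixon's 95% critical value for 7 samples in each. Chance flags about 5% of groups not picked by their values. These genes were named by mean, spread or group difference in the same values, so that share does not apply to them. Slc16a14 was at 3.32 in BXD36, with the next strain at 0.14 (gap share 0.776). Slc2a8 was at 2.56 in BXD33, with the next at 0.93 (gap share 0.653), and 7 strains of BXD1-32 had values of 2.16 or more. Slc39a3 was at 0.28 in BXD38, with the next at -0.27 (gap share 0.610). Slc23a2 was at -0.38 in BXD38, with the next at 0.24 (gap share 0.604). Slc12a7 was at 1.26 in BXD33, with the next at 0.63 (gap share 0.598). The cause of these values was not tested.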

How the results depend on the processing

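The count of 56 genes higher became 21, and that of 43 lower became 19, when treat was run against a log2 change of 0.2. Under the other alternatives the counts were 44 to 62 higher and 43 to 50 lower; the 44 came with the filter on small spread, which left 165 of the 186 genes. Of the 26 genes named for their means, none turned its sign and only Slc19a3 lost its call, with spot position removed; centring, the spot of largest SD and leaving out BXD15 and BXD38 ended none. Among the 99 genes that passed, the means of Slc11a1, Slc17a7, Slc20a2 and Slc27a4 changed sign with position removed and none of these passed there (means of -0.01, 0.10, -0.01 and -0.03). The correlation of Slc9a3 and Slc9a3r2 was -0.273 once the first principal component was removed (adjusted p = 0.377), and passed with position removed (-0.630), without BXD15 and BXD38 (-0.554) and by Spearman's rho; over these alternatives its adjusted p ran from 0.00378 to 0.377. The count of 0 genes between BXD33-42 and BXD1-32 (limma; 26 at an unadjusted p under 0.05) was 0 under each alternative too, with smallest adjusted p-values of 0.161 to 0.556. No paired analysis was possible because strains carry no numbers shared between groups. The 7 arrays of BXD33-42 and the unknown signal over background limit what these ratios can show.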

Other observations

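The 186 genes were not spread evenly over strains in where they peaked. BXD42 had the highest value of the 31 strains in 19 genes (10.2%), against 4.31% of all named genes, and the highest median of the solute carriers, at 0.175, while its median over all named genes was 0.00433. The 19 included the glucose transporters Slc2a1, at 0.99, and Slc2a4, the urate transporter Slc2a9, the myo-inositol transporter Slc5a3, the glycine transporter Slc6a9, the glutamate transporters Slc1a2 and Slc1a6, the vesicular carrier Slc32a1, at 1.20, and the scaffold Slc9a3r1, at 1.33. BXD6 was lowest in 15 genes (8.06%), against 5.33% of all named genes, among them Slc7a9, Slc7a11, Slc10a6 and Slc16a1. BXD2 was lowest in 11 genes (5.91%), against 2.18%, among them Slc2a5, Slc5a4a, Slc5a11, Slc8b1 and Slc35b3. BXD15 and BXD38 were each lowest in 18 genes (9.68%), against 9.6% and 7.98% of all named genes. On the first principal component of all features, BXD42 had the highest value of the strains, 0.270, while BXD2 was at -0.243 and BXD6 at -0.133. Among the genes listed, correlations with that component were 0.690 for Slc32a1, 0.864 for Slc5a4a, 0.694 for Slc5a11 and 0.818 for Slc8b1. The part of the component in these shares was not tested. These strains were picked after their values were seen, and the shares were not tested.

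Among the solute carriers left out of the description, 15 of 36 Slc25 genes, which serve the mitochondrial inner membrane, were higher and 9 lower, and 4 of 14 Slc22 genes were higher and 4 lower. These were 41.7% and 25% of Slc25 and 28.6% and 28.6% of Slc22, against 27.5% and 30.5% of all features. Of the 9 genes left out by name, Slc6a19, the luminal neutral amino acid transporter, passed as higher with a mean of 0.48 (adjusted p = 2.08e-08) and the other 8 did not pass.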
